A study of Mus musculus with 16 samples.

Results

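The comparison described here sets HL-1 cells that received dexamethasone and estradiol together against cells that received vehicle. HL-1 is an immortalised mouse atrial cardiomyocyte line, labelled female, that descends from a tumour driven by a viral large T antigen under the atrial natriuretic factor promoter, so every group is the same line with that antigen. The cells were grown in Claycomb medium and exposed for 6 h to PBS (vehicle), to 100 nM dexamethasone (Dex, a synthetic glucocorticoid), to 10 nM estradiol (E2), or to both hormones at those doses (Dex+E2). The series describes 4 independent experiments, and RNA was measured on 16 one-colour Agilent arrays on 4 slides, with 4 arrays for each label.

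Of the 16 arrays, 6 were compared: Dex+E2 1, 2 and 4 against vehicle 1, 2 and 3. These arrays were chosen by the measured level of Per1, a circadian clock gene whose transcription glucocorticoids induce directly. Levels throughout are log2 processed intensities from which the 75th percentile of their own array was subtracted, so a level of 0 is the 75th percentile and a difference of 1 is a doubling. The Per1 level was -0.96, -0.75 and -1.11 for vehicle 1, 2 and 3, and 1.86, 1.82 and 1.95 for Dex+E2 1, 2 and 4. The array labelled vehicle 4 had Per1 at 1.75 and the array labelled Dex+E2 3 had it at -1.11, each far from the arrays of its own label and close to those of the opposite one, and both were left out. Since these values chose the arrays, differences between the 6 arrays are given as a description with no test, and Per1 enters no count. The comparison covers 17784 genes, 12980 of them with a RefSeq symbol and the others under the array's own names.

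The label check was extended to Klf15, a glucocorticoid-induced transcription factor gene, and Greb1, a classical estrogen-induced gene. Klf15 was at 0.15, -0.34 and 0.53 on the vehicle arrays and at 2.25, 2.32 and 2.52 on the Dex+E2 arrays, and the groups did not overlap. Like Per1 it is glucocorticoid-induced, and it followed Per1 on the left-out arrays, at 2.51 on vehicle 4 and 0.54 on Dex+E2 3. Klf15 is therefore not a check independent of the choice of arrays. Greb1 was at -2.29, -2.29 and -1.26 on vehicle 1, 2 and 3, so vehicle 3 stood inside the range of the 4 arrays labelled E2, which was -1.64 to -1.17. On Dex+E2 1, 2 and 4 Greb1 was at -0.79, -1.08 and -0.78, above every vehicle array. Vehicle 4, left out by its Per1 level, had Greb1 at -1.29, close to vehicle 3 and on the same slide 2. The low Greb1 values were thus those of vehicle 1 and 2, both on slide 1. Dex 1 and 2, also on slide 1, had Greb1 at -1.39 and -1.30. Vehicle 3, kept by its Per1 level, stood apart from vehicle 1 and 2 for Greb1 and not for Klf15. The calls and list medians that differed without vehicle 3 are given below.

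The 2 labels share no slide. Vehicle 1 and 2 were on slide 1 and vehicle 3 on slide 2, whereas Dex+E2 1 and 2 were on slide 3 and Dex+E2 4 on slide 4, so slide and label cannot be told apart within the 6 arrays. Over all 16 arrays the 75th percentile intensity ranged from 402.1 to 556.6, probes well above background made up 58.6% to 65.6%, and no spot was saturated. All 10 atrial cardiomyocyte markers examined, among them the atrial myosin genes Myh6, Myl4 and Myl7, were well above background on all 6 arrays. So were 5 of 8 fibroblast, 5 of 5 smooth muscle, 2 of 7 endothelial and 1 of 6 leukocyte markers, whereas the endothelial genes Pecam1, Cdh5, Tek, Tie1 and Emcn and the leukocyte genes Ptprc, Adgre1 and Lyz2 were so on none.

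Both hormones act through nuclear receptors. Bound to a glucocorticoid, the glucocorticoid receptor (Nr3c1) moves to the nucleus and, as a dimer, raises transcription at palindromic response elements, while it lowers the output of other factors such as NF-kB and AP-1 largely without binding such elements itself. Estradiol acts through the estrogen receptors Esr1 and Esr2 at a different palindrome and through the membrane receptor Gper1. In heart muscle, glucocorticoids are known for acting on contraction, calcium handling and metabolism.

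Promoters are shown for 4 genes that were higher on Dex+E2: Slc10a6, Map3k6 and Mt1, because each holds the glucocorticoid receptor palindrome, and Klf15, because it is the gene of the label check and does not. Each is RefSeq sequence of the GRCm38.p6 assembly, 300 bases long, from 250 before to 50 after the annotated start, 5′ to 3′ on the gene's strand. Capitals mark the match to the palindromic glucocorticoid response element, and in Klf15 the E-box CACGTG, the site of CLOCK, BMAL1 and other helix-loop-helix factors. Both motifs read the same on both strands and do not overlap here.
Slc10a6, chr5:103629354-103629653, minus strand: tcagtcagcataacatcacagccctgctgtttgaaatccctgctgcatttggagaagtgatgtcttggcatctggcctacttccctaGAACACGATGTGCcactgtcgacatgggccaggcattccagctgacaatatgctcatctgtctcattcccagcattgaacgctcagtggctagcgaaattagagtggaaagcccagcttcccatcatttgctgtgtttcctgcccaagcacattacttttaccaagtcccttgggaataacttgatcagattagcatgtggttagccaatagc
Map3k6, chr4:133240568-133240867, plus strand: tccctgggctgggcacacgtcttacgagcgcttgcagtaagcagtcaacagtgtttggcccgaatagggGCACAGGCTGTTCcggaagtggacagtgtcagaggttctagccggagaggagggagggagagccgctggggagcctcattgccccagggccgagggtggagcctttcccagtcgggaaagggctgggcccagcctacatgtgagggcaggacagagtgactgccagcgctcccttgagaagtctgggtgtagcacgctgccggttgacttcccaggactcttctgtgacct
Mt1, chr8:94178839-94179138, plus strand: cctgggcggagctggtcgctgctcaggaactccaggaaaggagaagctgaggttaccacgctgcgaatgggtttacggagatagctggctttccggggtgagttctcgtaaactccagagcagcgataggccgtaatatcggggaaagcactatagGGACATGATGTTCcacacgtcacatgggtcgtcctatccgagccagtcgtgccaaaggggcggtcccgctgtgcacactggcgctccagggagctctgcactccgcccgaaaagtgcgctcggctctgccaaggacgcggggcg
Klf15, chr6:90462326-90462625, plus strand: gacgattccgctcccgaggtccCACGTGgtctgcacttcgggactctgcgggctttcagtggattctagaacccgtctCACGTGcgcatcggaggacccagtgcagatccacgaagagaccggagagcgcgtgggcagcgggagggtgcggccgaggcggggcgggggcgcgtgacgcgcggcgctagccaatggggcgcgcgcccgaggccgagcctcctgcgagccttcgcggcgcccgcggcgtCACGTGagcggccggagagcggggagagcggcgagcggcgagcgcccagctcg

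These 3 genes with the glucocorticoid palindrome were 4.92% of the 61 called higher genes that had a promoter in the table. Of all 10388 tested genes with a promoter, 42 held it, which is 0.404%. None of the 15 called lower genes with a promoter had it. The palindromic estrogen response element was in 0 of the 61 and 0 of the 15, and in 3 of the 10388 (0.0289%). The E-box was in 11 of the 61 (18.0%) and 2 of the 15 (13.3%), against 11.6% of all tested genes with a promoter. A match is a stretch of letters in this window, and neither a match nor its absence was tested for binding.

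A gene was called when its limma adjusted p in the 3 against 3 comparison was below 0.05, and this call only orders and counts genes. By that rule 124 genes were called, 0.697% of those tested: 93 were higher on Dex+E2 (0.523%) and 31 were lower (0.174%). Nothing is read from these shares, because the arrays were chosen within the same contrast. A symbol was available for 77 of the higher and 21 of the lower genes. The others are entries under the array's own names, and whether any repeats a gene counted by symbol was not checked. The genes higher on Dex+E2 were led by the transporter gene Slc10a6, the ubiquitin ligase gene Trim67, the arrestin-domain gene Arrdc2 and glucocorticoid-induced genes such as Klf15 and Mt2. The lower genes were fewer and differed less, and they included the ephrin ligand gene Efnb3, the Notch target Hes1 and the immediate early gene Egr1. Among the called genes, 69 were more than 1 log2 unit higher and 15 more than 1 unit lower. The median difference was 1.40 for the higher and -0.98 for the lower genes, against -0.02 over all genes tested. In all 124 the vehicle and Dex+E2 arrays did not overlap, which held for 7.88% of all genes in the higher and 8.99% in the lower direction. A call on so few arrays favours genes without overlap, so nothing further is read from this.

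The genes nearest the threshold on the inside were Tmem119, Tfdp2 and Ece1, with differences of 1.61, 0.77 and 1.15. Just outside lay Gata6, Drd4 and Ttpa, with 0.72, 2.77 and 1.05. The count itself depended on single arrays. Without vehicle 1, 2 or 3 the calls were 49 higher and 2 lower, 39 and 3, and 57 and 21. Without Dex+E2 1, 2 or 4 they were 28 and 11, 9 and 0, and 26 and 0. With all 4 arrays of each label, the 2 left-out arrays included, limma called no gene in either direction, with 532 at an unadjusted p below 0.05.

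**Figure D1:**
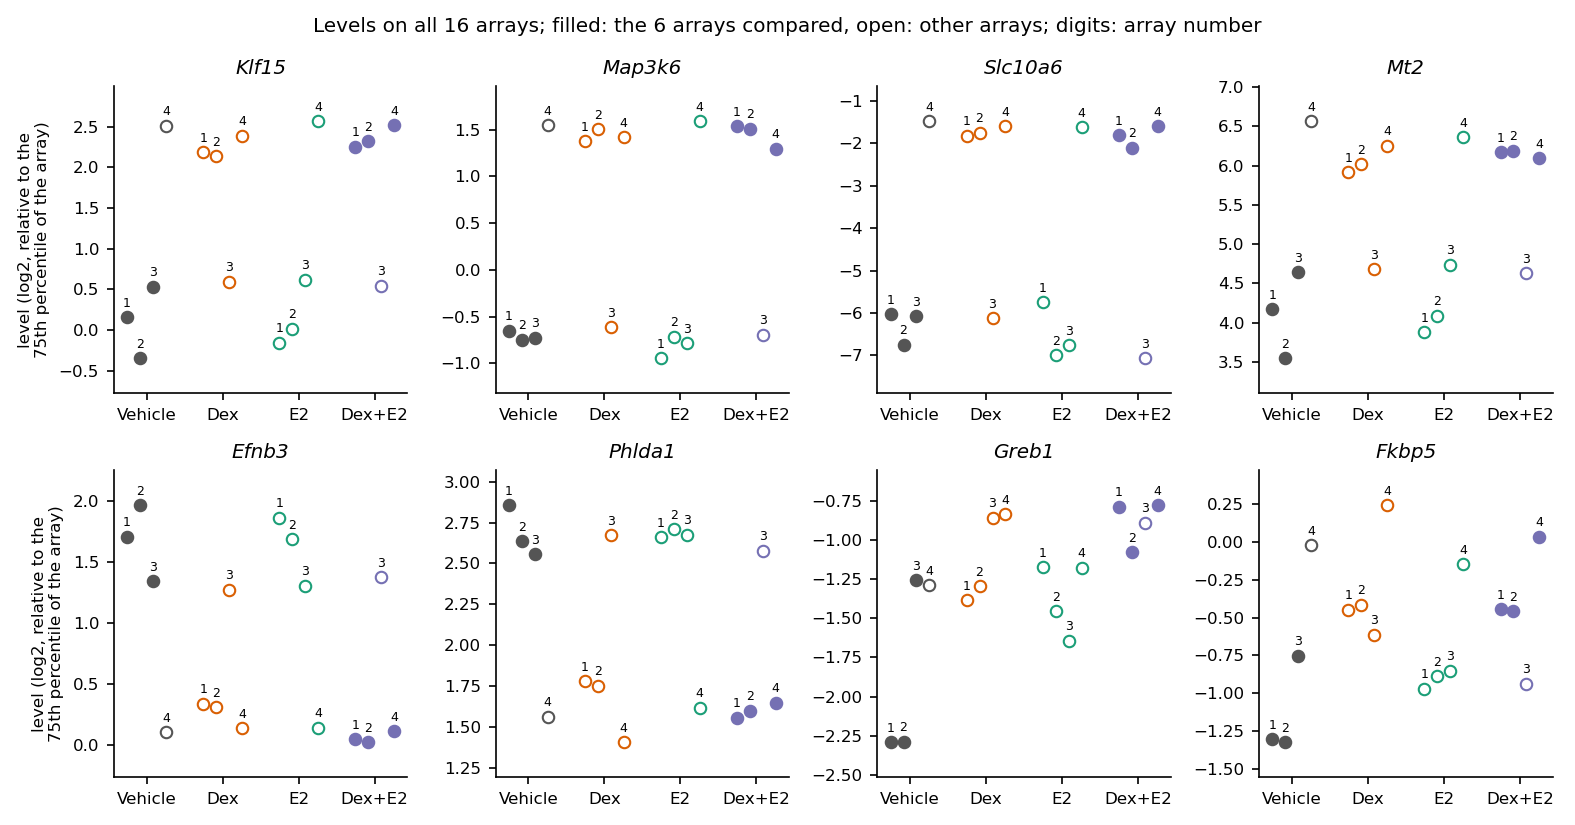
Level of 8 genes (log2, the 75th percentile subtracted, vertical axis) on each of the 16 arrays by label, with filled points for the 6 arrays compared, open points for the other 10, and the array number above each point. The filled points of the 2 groups stand apart in all 8 panels, and the open points of vehicle 4 and Dex+E2 3 lie with the opposite label for Klf15, Map3k6, Slc10a6, Mt2, Efnb3 and Phlda1.

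Among transporters and enzymes, Slc10a6, which encodes a carrier of sulfated steroids, had the largest measured difference, which rests in part on values near background. It was at -6.03, -6.76 and -6.08 on the vehicle arrays, where only 1 of the 3 was well above background, and at -1.81, -2.10 and -1.59 on the Dex+E2 arrays. The measured means were separated by 4.46 ± 0.26 (SE, n = 3 against 3), with no fold given because vehicle 1 and 2 were not well above background. B4galnt1, a ganglioside-synthesis enzyme, was at -2.40, -3.25 and -2.27 under vehicle and 0.21, 0.18 and -0.16 on Dex+E2. The difference was 2.72 ± 0.27, and a second B4galnt1 probe gave 1.42. Adamts1, a secreted protease of the extracellular matrix, was at -0.46, -0.38 and -1.05 against 1.41, 1.41 and 1.88, a difference of 2.20 ± 0.21, with vehicle 3 lowest and Dex+E2 4 highest.

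Trim67 was at -4.55, -4.43 and -4.32 under vehicle and -0.01, 0.05 and -0.25 on Dex+E2. The difference of 4.36 ± 0.15, about 20.6-fold, was far larger than the spread within either group. Tent5b, a noncanonical poly(A) polymerase gene, was at -2.90, -2.69 and -3.10 against -0.14, -0.05 and -0.37, a difference of 2.71 ± 0.16. Arrdc2, whose family of proteins regulates receptor trafficking, was at -4.08, -4.66 and -3.30 against -0.78, -0.91 and -0.60. Here vehicle 3 was the highest vehicle array, and the difference was 3.25 ± 0.33. These genes were dim on vehicle, and the size of their differences depended on the background treatment. With normexp background correction, which adds an offset of 50, and quantile normalization, the differences were 0.74 for Slc10a6, 1.57 for Trim67, 1.07 for Arrdc2, 1.27 for B4galnt1 and 1.22 for Tent5b, all still higher on Dex+E2.

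Kcnh1, Apod and Muc4 were not well above background on any vehicle array, so only a lower bound can be given, taken against the dimmest signal well above background on each vehicle array. Kcnh1, a voltage-gated potassium channel gene, was at least 2.37-fold higher on Dex+E2. Apod, which encodes the lipocalin apolipoprotein D, was at least 2.66-fold higher, and Muc4, a membrane mucin gene, at least 2.49-fold higher. For Muc4 another probe was brighter when dim probes were kept, and that probe gave -0.19, so the 2 Muc4 probes disagreed in direction.

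Many of the named higher genes are known glucocorticoid targets. Map3k6, a stress-activated kinase gene, was at -0.65, -0.75 and -0.72 under vehicle and 1.54, 1.51 and 1.29 on Dex+E2, a difference of 2.15 ± 0.10. Klf15 differed by 2.25 ± 0.21, about 4.75-fold, and its second probe by 2.11. Plin4, which encodes a lipid droplet coat protein, was at -0.22, 0.27 and -0.09 against 2.21, 2.29 and 1.74, a difference of 2.09 ± 0.19. All 3 genes showed vehicle arrays within 1 unit of each other and no overlap with Dex+E2.

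The metallothionein genes Mt1 and Mt2 encode metal-binding proteins. Mt2 was at 4.18, 3.55 and 4.64 under vehicle and 6.17, 6.19 and 6.10 on Dex+E2, a difference of 2.03 ± 0.25. Mt1 was at 4.45, 4.28 and 4.16 against 5.51, 5.60 and 5.05, a difference of 1.09 ± 0.16, with 1.56 at its second probe. The C/EBP transcription factor genes Cebpb and Cebpd were higher by 1.40 ± 0.12 and 1.44 ± 0.10. Klf9, another Krüppel-like factor gene, was higher by 0.92 ± 0.12, and Tsc22d3, which encodes the leucine zipper protein GILZ, by 0.63 ± 0.10.

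Other glucocorticoid readouts in the panel were not called. Fkbp5, a co-chaperone that feeds back on the receptor, was at -1.30, -1.32 and -0.75 under vehicle and -0.44, -0.46 and 0.03 on Dex+E2. The groups did not overlap, and the difference was 0.83 ± 0.21, but its 2 further probes gave 1.16 and -0.02. Sgk1, a kinase that regulates sodium transport, was at 1.04, 1.24 and 0.40 against 1.18, 1.15 and 0.92, so the groups overlapped and vehicle 3 stood below the others. Ptgds, a prostaglandin synthase gene, differed by 0.01 ± 0.11. The receptor gene Nr3c1 itself was lower by 0.23 ± 0.10 on Dex+E2 and was not called.

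On the estrogen side, Greb1 differed by 1.06 ± 0.29 over the 6 arrays, and it was not called in the 3 against 3 comparison. The difference was 1.41 without vehicle 3, which leaves only vehicle 1 and 2, both on slide 1. On the arrays labelled Dex, Greb1 was at -1.39, -1.30, -0.86 and -0.84, and on those labelled E2 at -1.17, -1.45, -1.64 and -1.18. Vehicle 1 and 2 were thus the lowest of all 16 arrays for Greb1, and the arrays with 1 hormone overlapped each other. With normexp and quantile normalization the Greb1 difference was 0.47.

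Tff1, the trefoil factor gene that estradiol induces in breast cells, was at -5.96, -5.84 and -5.96 under vehicle and -5.09, -5.18 and -5.54 on Dex+E2, a difference of 0.65 ± 0.24 near background. The arrays labelled E2 were at -4.96, -5.05, -4.92 and -4.51, above every array of the other labels. Those labelled Dex were at -5.19, -5.33, -5.85 and -5.92. The estrogen receptor gene Esr1 reached the level called well above background on 0 of the 16 arrays. Pgr, the progesterone receptor gene and an estrogen target, did so on vehicle 3 alone, where it was at -2.34 while the other 15 lay between -8.52 and -6.16. Esr2, the second nuclear estrogen receptor gene, was lower on Dex+E2 by 0.64 ± 0.13, and Gper1 by 0.91 ± 0.15. The 2 groups did not overlap for Esr2 or Gper1, and neither gene was called.

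The genes lower on Dex+E2 included signalling, adhesion and muscle genes. Efnb3, an ephrin ligand of Eph receptors, was at 1.71, 1.96 and 1.34 under vehicle and 0.05, 0.02 and 0.11 on Dex+E2, a difference of -1.61 ± 0.16. Phlda1, a pleckstrin-homology domain gene induced by growth factors, was at 2.86, 2.64 and 2.56 against 1.56, 1.60 and 1.65, a difference of -1.08 ± 0.10. The 3 Dex+E2 arrays lay within 0.1 of each other for both genes, and the vehicle arrays were more spread.

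Egr1, an immediate early zinc finger factor gene, was at 1.02, 1.17 and 0.94 under vehicle and 0.10, 0.14 and -0.13 on Dex+E2, a difference of -1.01 ± 0.12. Hes1, a repressor downstream of Notch, was at -0.74, -0.76 and -0.95 against -1.87, -1.83 and -1.69, a difference of -0.98 ± 0.12. Igfbp5, a secreted binding protein of insulin-like growth factors, was lower by 0.93 ± 0.13 and by 0.51 at its second probe. The adaptor gene Plekha6 was lower by 1.03 ± 0.15 and by 0.47 at its second probe. Klhl30, of the kelch-like family, was lower by 0.91 ± 0.13, and the membrane scaffold gene Magi3 by 0.83 ± 0.10.

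Kif26a, Oxct2a and Ptpn22 were not well above background on any Dex+E2 array. Kif26a, an atypical kinesin gene, was at least 2.26-fold lower on Dex+E2, Oxct2a, a testis form of a ketone-body enzyme, at least 2.80-fold lower, and Ptpn22, a tyrosine phosphatase gene of lymphocytes, at least 2.39-fold lower. With dim probes kept, a brighter Kif26a probe gave a difference of 0.00, so its probes disagreed. In all, 11 of the 31 lower genes had no Dex+E2 array well above background and 5 of the 93 higher genes had no vehicle array well above background. These genes passed the probe filter only through the group in which they were higher. Nothing is therefore read from their direction or from their number among the calls.

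**Figure D2:**
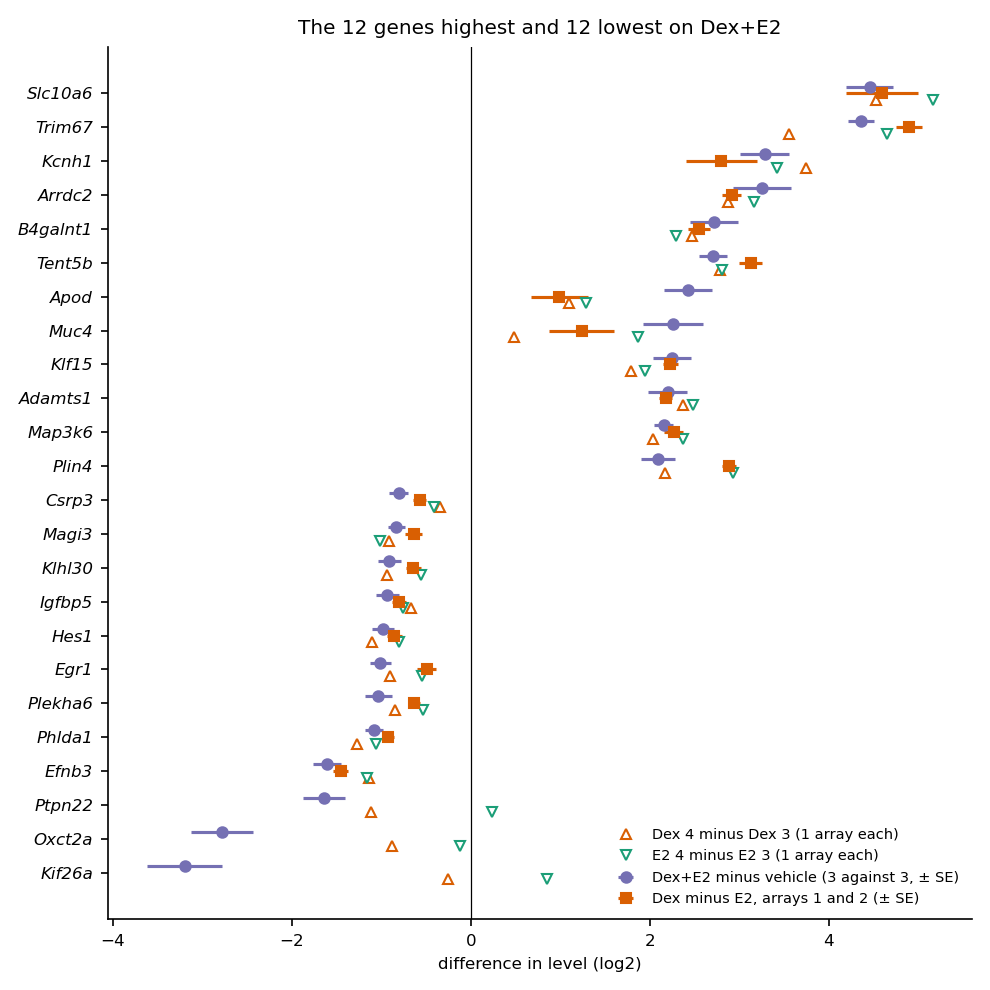
Difference in level (log2, horizontal axis) of the 12 genes with the largest called difference in each direction: Dex+E2 minus vehicle over 3 against 3 arrays (circles with SE), Dex minus E2 over arrays 1 and 2 (squares with SE), and the single-array differences Dex 4 minus Dex 3 and E2 4 minus E2 3 (open triangles). Squares are missing for Kif26a, Oxct2a and Ptpn22, which were not tested there. Apod and Muc4, whose squares lie left of their circles, were not well above background on vehicle or on E2 1 and 2.

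The same genes were then tested on 4 arrays that did not enter the choice above, Dex 1 and 2 against E2 1 and 2. This measures Dex minus E2, not both hormones minus vehicle. The 4 arrays lie at the same positions of slide 1 (Dex) and slide 2 (E2), so slide and label cannot be told apart here either, and their Per1 levels of 1.91 and 1.81 against -0.86 and -0.999 were known when they were picked. Limma tested 18012 genes and called 454 at an adjusted p below 0.05, 2.52% of them: 303 were higher on Dex (1.68%) and 151 lower (0.838%). Its p-values measure the spread between 2 arrays of a label. Without Dex 1 or Dex 2 the calls were 44 higher and 6 lower, or 57 and 8, and without E2 1 or E2 2 they were 648 and 553, or 3050 and 2490.

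All 93 genes higher on Dex+E2 were tested there, all 93 were also higher on Dex than on E2, and 83 (89.2%) were called in that direction. Of all genes above 0 in the first comparison, 65.8% were also higher on Dex and 3.52% were called. Of the 31 lower genes, 21 were tested, all 21 were lower on Dex, and 15 (71.4%) were called, against 60.9% and 1.32% of all genes below 0. No called gene was called in the opposite direction. The median Dex minus E2 difference was 1.24 for the higher and -0.64 for the lower genes, against 0.01 over all genes tested. Leaving out Dex 1 or Dex 2 left 32 or 33 genes called in both comparisons in place of 98, and leaving out E2 1 or E2 2 left 109 or 111. Leaving out Dex+E2 2 left 9, Dex+E2 4 left 26, Dex+E2 1 left 30, and vehicle 1, 2 or 3 left 48, 41 or 63.

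Background mattered for that count. Of the 85 higher genes that were well above background on every array with a value, 80 were called on Dex against E2, and of the 20 such lower genes 15 were called. Of the 8 higher and 11 lower genes that were below background on at least 1 array, 3 and 0 were called, and only 1 of those 11 lower genes was tested.

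**Figure D3:**
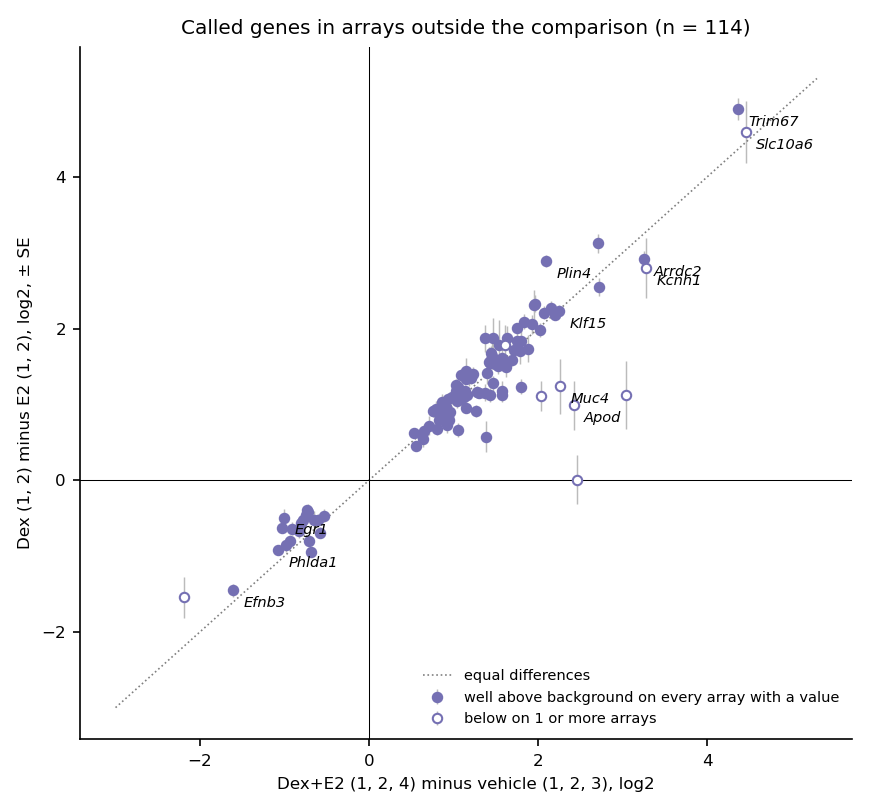
Dex minus E2 over arrays 1 and 2 (log2, vertical axis, with SE) against Dex+E2 minus vehicle over the 6 arrays (log2, horizontal axis) for the 114 called genes tested in both, with filled points for genes well above background on every array with a value. In all points both differences have the same sign, and Apod and Muc4, both near background on vehicle and E2, are open points under the line of equal differences.

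Klf15 was higher on Dex 1 and 2 (2.19 and 2.14) than on E2 1 and 2 (-0.15 and 0.02), by 2.23 ± 0.08 (limma adjusted p = 0.00084). Trim67 was higher by 4.90 ± 0.15 (limma adjusted p = 0.00062) and Arrdc2 by 2.92 ± 0.11 (limma adjusted p = 0.00084), with both Dex arrays above both E2 arrays for each. Slc10a6 was at -1.82 and -1.75 on Dex 1 and 2 and at -5.75 and -7.00 on E2 1 and 2, and since E2 2 was not well above background its exact difference is not given. Plin4 was higher by 2.89 ± 0.08 (limma adjusted p = 0.00062), Map3k6 by 2.27 ± 0.10 (limma adjusted p = 0.0012) and Mt2 by 1.99 ± 0.09 (limma adjusted p = 0.0012). Among the lower genes, Efnb3 differed by -1.45 ± 0.08 (limma adjusted p = 0.0021) and Phlda1 by -0.92 ± 0.06 (limma adjusted p = 0.0040). Of the named genes, 13 lost their call without Dex 1 and the same 13 without Dex 2: Slc10a6, Kcnh1, Klf9, Fkbp5, Sgk1, Phlda1, Hes1, Igfbp5, Klhl30, Magi3, Plekha6, Csrp3 and Gper1.

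Some named genes did not pass that test. Apod differed by 0.99 ± 0.32 (limma adjusted p = 0.19) and Muc4 by 1.24 ± 0.36 (limma adjusted p = 0.16). Both were not well above background on E2 1 and 2, so these sizes are not set against those on Dex+E2 and vehicle. Egr1 differed by -0.49 ± 0.11 (limma adjusted p = 0.098) and Tsc22d3 by 0.60 ± 0.12 (limma adjusted p = 0.082). Greb1 differed by -0.03 ± 0.12 (limma adjusted p = 0.90). Sgk1, which was not called on Dex+E2 against vehicle, was higher on Dex than on E2 by 0.62 ± 0.07 (limma adjusted p = 0.014), and Gper1 was lower by 0.79 ± 0.11 (limma adjusted p = 0.031).

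Whether the difference on Dex+E2 against vehicle departed from that on Dex against E2 was tested gene by gene on the arrays numbered 1 and 2 of all 4 labels. By its terms this equals the estradiol difference with dexamethasone (Dex+E2 minus Dex) plus that without it (E2 minus vehicle). It is thus a sum of estradiol differences and does not test whether the hormones interact. On these arrays vehicle and Dex were on slide 1, E2 on slide 2 and Dex+E2 on slide 3. The sum therefore also sets slides 2 and 3 against slide 1, and slide and estradiol cannot be told apart in it. Limma called none of 17784 genes at an adjusted p below 0.05, with 1952 at an unadjusted p below 0.05. The estimate for Greb1 was 1.38 ± 0.20 (limma adjusted p = 0.42) and for Klf15 0.15 ± 0.22 (limma adjusted p = 0.81). With 2 arrays a label, a summed difference of the size seen for Greb1 did not reach the threshold.

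Within the other labels, the arrays numbered 3 and 4 also differed in these genes. Dex 4 was above Dex 3 for 92 of the 93 higher genes and below it for 30 of the 31 lower genes, with medians of 1.09 and -0.81. E2 4 was above E2 3 for 93 of 93 and below it for 27 of 31, with medians of 1.29 and -0.54. Klf15, for example, was at 0.59 on Dex 3 and 2.39 on Dex 4, and at 0.62 on E2 3 and 2.56 on E2 4. Over all genes the same-direction shares were 44.4% and 73.0% for Dex and 56.5% and 54.8% for E2, for genes above and below 0 respectively. Each of these is 1 array against 1 of the same label and slide, so no test was made, and the arrays' labels give no difference in treatment.

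The position of each array between the group means was taken as the median over the 124 genes of its distance from the vehicle mean, as a share of the whole difference. Vehicle 4 lay at 0.96, nearer the Dex+E2 mean for 119 genes, and Dex+E2 3 lay at 0.04, nearer it for 7. Dex 1, 2 and 4 were at 0.98, 0.99 and 0.95, whereas Dex 3 was at 0.08. E2 1, 2 and 3 were at 0.01, 0.04 and 0.06, whereas E2 4 was at 1.02. No array lay between these extremes, and 4 of the 10 arrays outside the comparison stood at the end opposite to most others of their label: vehicle 4, Dex 3, E2 4 and Dex+E2 3. Every array numbered 3 lay near 0 and every array numbered 4 near 1, whatever its label, and this includes vehicle 3 at 0.00 and Dex+E2 4 at 1.00, which define the means. For those 2 arrays, label and number cannot be told apart, and whether the labels of the arrays numbered 3 and 4 are right was not tested. With the arrays numbered 1 and 2 only, 5 genes were called higher on Dex+E2 and 0 lower, with limma on 2 arrays a label and 2672 genes at an unadjusted p under 0.05.

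**Figure D4:**
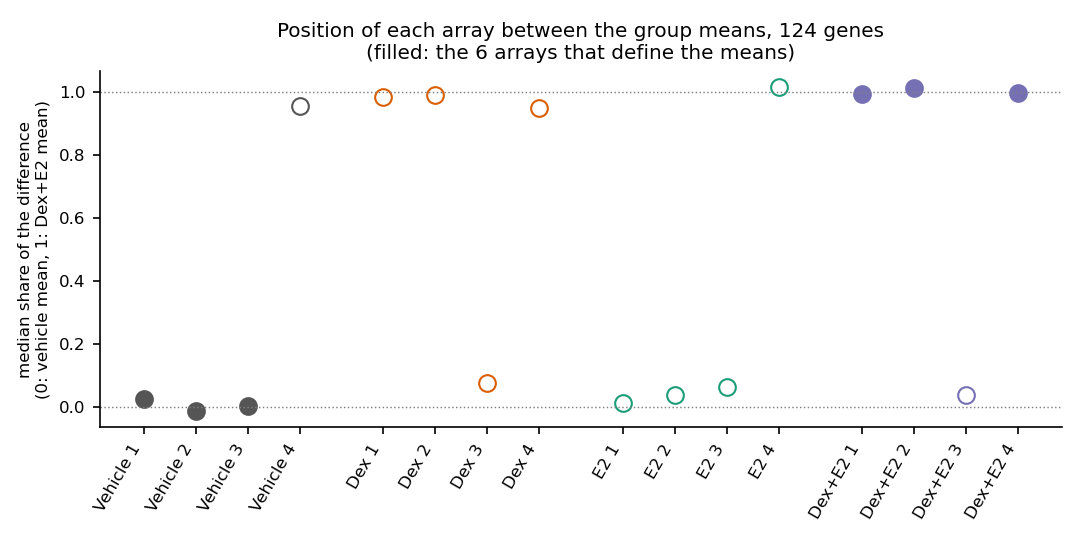
Median position of each of the 16 arrays over the 124 called genes, as a share of the difference between the vehicle mean (0) and the Dex+E2 mean (1); filled points are the 6 arrays that define the means and open points the other 10. Vehicle 4 at 0.96 and E2 4 at 1.02 lie at the top, and Dex 3 at 0.08 and Dex+E2 3 at 0.04 at the bottom.

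Gene lists place the named genes in their pathways. Each list is described by how many of its measured members were called and by its median, beside the median of -0.02 for all genes. Over all genes tested, 0.523% were called higher and 0.174% lower on Dex+E2 against vehicle. On Dex against E2 the shares were 1.68% higher and 0.838% lower. The counts of every list below stand beside these shares. Of 37 measured glucocorticoid-induced genes, 10 were called higher and none lower on Dex+E2, against 0.523% of all genes called higher. Their median difference was 0.43, and 26 of the 37 were above 0, against 8134 of all 17784 genes. Per1, which chose the compared arrays, is itself glucocorticoid-induced, and the lists were chosen with earlier results of these data known. Nothing is therefore read from the share called. The 10 were Arrdc2, Klf15, Map3k6, Plin4, Mt2, Cebpd, Cebpb, Mt1, Klf9 and Tsc22d3. The count was 6, 7 and 7 without vehicle 1, 2 or 3, and 6, 2 and 5 without Dex+E2 1, 2 or 4, and without vehicle 3 the list's Trim63 was called lower. With all 4 arrays of each label it was 0. Under normexp and quantile normalization it was 9, without Klf9 and Tsc22d3 and with Pdk4. With the value table that the authors deposited it was 12. The list's median was 0.16 without vehicle 3 and 0.18 with all 4 arrays of each label. In the Dex and E2 arrays, 20 of 36 measured members passed, all higher, against 1.68% of all genes called higher on Dex, with a median of 0.50, and they also included Bcl6, Ddit4, Pdk4, Nfkbia and Sgk1. Those arrays were picked with their Per1 levels known, so this share carries the same limit.

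Of 19 measured estrogen-induced genes, none was called in either direction on Dex+E2 against vehicle, and their median was 0.04. Without vehicle 3, Greb1 was called higher and the median was -0.02. Between Dex and E2, 1 of 19 passed, against 1.68% of all genes called higher. This was Cxcl12, a chemokine gene, higher on Dex by 1.66 ± 0.07 (limma adjusted p = 0.0011). Cxcl12 was at 2.40, 2.40 and 1.57 under vehicle and 3.51, 3.64 and 3.16 on Dex+E2, a difference of 1.31 ± 0.25 with no overlap, and it was not called there. It was called higher there under normexp and quantile normalization, and also with the value table that the authors deposited.

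Per1 aside, none of 17 measured clock genes was called, and their median was -0.01. Without vehicle 3, Per2 was called higher. Per2, a repressor in the clock loop, was at -2.12, -1.89 and -1.33 under vehicle and -0.58, -0.84 and -0.78 on Dex+E2, a difference of 1.05 ± 0.21, with vehicle 3 nearest to Dex+E2. On Dex against E2, 4 of the 17 were called higher and 1 lower, against 1.68% and 0.838% of all genes. Per2 was higher by 1.21 ± 0.11 (limma adjusted p = 0.0081) and Hlf by 1.11 ± 0.07 (limma adjusted p = 0.0033). The nuclear receptor gene Nr1d1 was lower by 0.81 ± 0.10 (limma adjusted p = 0.020), and on Dex+E2 against vehicle it was at -0.73 ± 0.13 without a call.

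Heart muscle genes differed in both directions. Of 29 measured sarcomere genes, 1 was called higher, Myoz2, whose Z-disc product binds calcineurin, and 1 lower, Csrp3, a LIM protein gene of the Z-disc. Myoz2 was at 2.00, 1.81 and 1.71 under vehicle and 3.22, 3.16 and 2.74 on Dex+E2, a difference of 1.20 ± 0.15, and it was higher on Dex than E2 by 1.35 ± 0.08 (limma adjusted p = 0.0021). Csrp3 was at 1.39, 1.63 and 1.29 against 0.65, 0.62 and 0.61, a difference of -0.80 ± 0.11, and it was lower on Dex than E2 by 0.57 ± 0.07 (limma adjusted p = 0.022). The slow myosin heavy chain gene Myh7 differed by 1.38 ± 0.24 without a call and was higher on Dex than E2 by 1.33 ± 0.08 (limma adjusted p = 0.0021). Under normexp and quantile normalization Myh7 was called higher on Dex+E2. The list's median was -0.02. The call of Myoz2 was lost without vehicle 2 or 3 or Dex+E2 1 or 2, and that of Csrp3 was kept only without vehicle 3, which also added Myom2 as higher.

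Of 28 measured calcium handling and ion channel genes, Sln was called higher and none lower, with a list median of -0.11. Without vehicle 3 the median was -0.21, and the call of Sln was lost on leaving out any 1 of the 6 arrays. Sln, which encodes sarcolipin, the inhibitor of the sarcoplasmic calcium pump in atria, was at 2.53, 2.03 and 2.22 under vehicle and 3.71, 3.75 and 3.16 on Dex+E2, a difference of 1.28 ± 0.20. On Dex against E2, Sln was higher by 1.16 ± 0.08 (limma adjusted p = 0.0035), while the T-type calcium channel gene Cacna1g was lower by 1.00 ± 0.09 (limma adjusted p = 0.0080) and the gap junction gene Gja5 by 1.36 ± 0.17 (limma adjusted p = 0.023). Cacna1g and Gja5 differed by -1.65 ± 0.30 and -1.25 ± 0.31 on Dex+E2 against vehicle, without a call. With the value table that the authors deposited, the list's Kcnh2 was called lower on Dex+E2.

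Lists of inflammatory genes had medians below 0 with almost no calls. Of 23 measured interferon response genes none was called, 2 were above 0 and the median was -0.26. Over all 17784 genes, 8134 were above 0. On Dex against E2, 9 of 21 measured interferon response genes were above 0 and none passed. Of 13 measured cytokine and NF-kB genes, Relb, an NF-kB subunit gene, was called lower with a difference of -0.61 ± 0.09, and the list's median was -0.39. The call of Relb was lost on leaving out any 1 of the 6 arrays and under normexp and quantile normalization. That normalization gave medians of -0.10 and -0.14 for the interferon and cytokine lists, and leaving out vehicle 3 gave -0.40 and -0.47. On Dex against E2, Relb was lower by 0.52 ± 0.07 (limma adjusted p = 0.030), and the inhibitor gene Nfkbia was higher by 0.85 ± 0.07 (limma adjusted p = 0.0062).

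In metabolism, Plin4 was the 1 gene called of 27 measured fatty acid and lipid droplet genes, with a list median of 0.06. Of these, on Dex against E2, 6 of the 27 passed, all higher, against 1.68% of all genes: Acsl1, Cpt1a, Fabp4, Pdk4, Plin4 and Plin5. Acsl1 and Pdk4 were also called higher on Dex+E2 against vehicle under normexp and quantile normalization, and with the authors' deposited table. Mt1 and Mt2 were the 2 genes called, both higher, of 24 antioxidant and metallothionein genes, against 0.523% of all genes called higher. Egr1 was the 1 gene called, lower, of 25 immediate early and MAP kinase feedback genes, and Igfbp5 the 1 called, lower, of 20 FOXO, atrophy and insulin signalling genes. The calls of these single members also depended on single arrays. Plin4 lost its call without Dex+E2 2, Igfbp5 on leaving out any 1 array and Egr1 on leaving out any 1 other than vehicle 3, and neither Mt1 nor Mt2 was called without vehicle 1, Dex+E2 1 or Dex+E2 2. No member was called in the lists for cholesterol synthesis (24 measured, median 0.10), ER stress and amino acid response (24, 0.20), hypoxia and glycolysis (30, 0.02), cell cycle (27, 0.05), extracellular matrix (21, -0.04), TGF-beta and BMP targets (22, -0.20) or cardiac transcription factors (20, -0.01). Nor was any in those for natriuretic peptide and fetal heart genes (9, 0.00), adrenergic and cyclic AMP genes (12, 0.06), NAD synthesis and use (12, 0.02) or hormone receptors (7, -0.23). Without vehicle 3 the medians were -0.17 for extracellular matrix, -0.32 for TGF-beta and BMP targets and -0.10 for hypoxia and glycolysis, and Nmrk2 of the NAD list and Ier3 of the immediate early list were called lower. Nampt of the NAD list and Fbxo31 of the FOXO list were called higher under normexp and with the deposited table. Myh7 of the fetal heart list was called higher under normexp, and Herpud1 of the ER stress list with the deposited table.

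**Figure D5:**
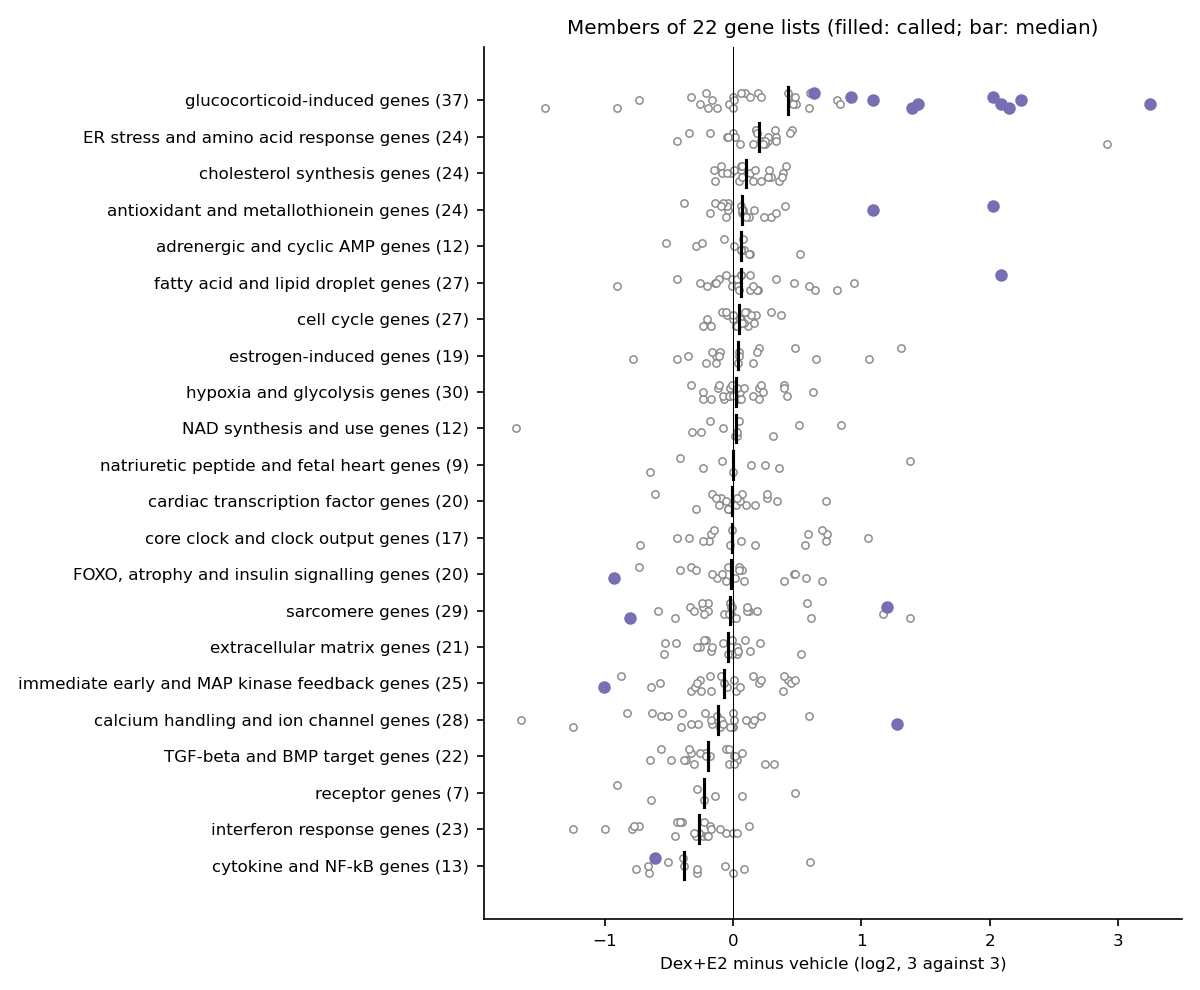
Dex+E2 minus vehicle (log2, 3 against 3 arrays, horizontal axis) for each measured member of 22 gene lists, with the number measured in brackets, filled points for called members and a vertical bar for the list's median. The glucocorticoid-induced list has the highest median, 0.43, and the most filled points, 10, and the cytokine and NF-kB list has the lowest median, -0.39. The arrays were chosen on Per1, which glucocorticoids also induce.

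Markers of other cell types were compared beside these groups. Of 7 endothelial markers, Kdr and Vwf were well above background on all 6 arrays and the other 5 on none, and the summed linear level of the 7 ranged from 1.24 to 1.66 on vehicle and from 2.10 to 2.31 on Dex+E2. Kdr, the vascular endothelial growth factor receptor gene, carried this, at 0.39, 0.67 and 0.17 under vehicle and 1.01, 1.03 and 1.16 on Dex+E2, whereas Vwf overlapped. The sums overlapped for fibroblast markers (5 of 8 well above background on all 6 arrays, Lum on none; 33.6 to 49.9 on vehicle and 32.5 to 48.0 on Dex+E2) and smooth muscle markers (5 of 5; 273.3 to 307.4 and 246.5 to 301.1). They also overlapped for leukocyte markers (1 of 6; 0.103 to 0.144 and 0.0818 to 0.113) and for the atrial cardiomyocyte markers (615.5 to 691.5 and 601.5 to 701.5). The part of the higher Kdr level in the other differences was not tested. In bulk RNA, fewer cells that express a gene and less RNA per cell cannot be told apart.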

How the data were processed

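RNA from 16 HL-1 cultures was hybridised to one-colour Agilent arrays and read with Agilent Feature Extraction 12, per the submitters' processing notes; no genome build was given in the sources used here. The deposited scanner files hold the processed signal, an intensity that the authors' software had background-corrected, with a background flag for each spot. The authors' deposited value table is on the log2 scale with a median of 4.70 on every array. It correlated with the scanner values of its own array at 0.999 or more, and how it was normalized was not given in the sources used here.

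Control spots and flagged spots were left out, which leaves Pdzd2 without a value on Dex+E2 2, spots of a probe were averaged, and log2 intensities were centred on the 75th percentile of each array. Of 41174 probes, 28223 were named through RefSeq (GRCm38.p6), giving 19096 genes, and 12951 kept the array's name. Probes kept were those with every array of 1 or more groups flagged well above background (24447 probes), and the brightest probe stood for a gene. Limma 3.58.1 in R 4.3.3 (lmFit, eBayes with a trend, two-sided, Benjamini-Hochberg over all genes) compared Dex+E2 1, 2 and 4 with vehicle 1, 2 and 3, and Dex 1 and 2 with E2 1 and 2. Each fit held only its own arrays and no covariate, and it was run on simulated data with known changes. The simulated noise was independent between arrays, with no slide effect and no choice of arrays by Per1. It therefore does not speak to either feature of the real arrays. The number of arrays limits the precision. Bounds for dim genes are means of normalized log2 values.

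Named genes were those with a symbol, called and not overlapping between groups: the 12 largest in each direction, up to 3 called members of any gene list with at least 2 called, and a panel of receptor and hormone target genes. Genes named beyond these were chosen as list members that passed a test. The members and lists were chosen with earlier results of these data known. Arrays sharing a number were not treated as paired, since the labels do not say that a number marks a shared experiment; deviations from the group means of arrays numbered 1 and 2 correlated at -0.23 and -0.03 in the 2 comparisons. Alternatives were normexp with quantile normalization, the deposited table, other probe filters, no trend, the mean of a gene's probes, leaving out arrays, a replicate block and slide as a block. Normexp used the median signal, as the mean signal was not used here.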

Additional observations from a re-analysis of the deposited data

Results flagged for a closer look

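The arrays that the Per1 rule left out carried signal of their own. On the array labelled vehicle 4, 119 of the 124 called genes were nearer the Dex+E2 mean than the vehicle mean, and Klf15 was at 2.51, as high as on the 3 Dex+E2 arrays compared. On the array labelled Dex+E2 3, 7 of the 124 were nearer the Dex+E2 mean.

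Kif26a and Ptpn22 went in opposite directions in the single-array differences of the other labels. Dex 4 minus Dex 3 was -0.26 for Kif26a and -1.12 for Ptpn22, and E2 4 minus E2 3 was 0.85 and 0.24. Each is 1 array against 1, the difference between labels was not tested, and both genes were below background on all Dex+E2 arrays compared.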

How the results depend on the processing

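Counts are given as higher, then lower. On Dex+E2 against vehicle (93 and 31), they were 60 and 10 with no filter on dim probes, 32 and 2 with slide as a random block (within-slide correlation 0.49), and 5 and 0 with the arrays numbered 1 and 2 only. The deposited table gave 53 lower genes, and slide as a fixed block over 12 arrays gave 19 lower. With all 4 arrays of each label limma called 0 and 0 (532 at an unadjusted p below 0.05), and the replicate block over the arrays numbered 1 and 2, which share only a number, gave 0 and 0 (1687 at an unadjusted p below 0.05). The crossed replicate block, chosen after seeing the data, gave 0 and 0 as well, and the arrays numbered 1 and 2 of all 4 labels in one fit, also chosen after seeing the data, gave 317 and 358. Leaving out 1 array gave 9 to 57 and 0 to 21. On Dex against E2 (303 and 151), the variance prior without a trend gave 92 and 28, the replicate block 246 and 110, and leaving out 1 array 44 to 3050 and 6 to 2490; the lone array left in a label is assumed to vary like the others. Genes called in both (98) numbered 64 with no filter, 55 without a trend, 34 with slide as a random block, 5 with the arrays numbered 1 and 2 only, 280 with those of all 4 labels, and 0 with all 4 arrays, the replicate block or the crossed block in Dex+E2 against vehicle. Leaving out 1 array gave 9 to 111. No setting called a gene in the direction opposite to its call here. Muc4 reversed to -0.19 with no filter on dim probes, where a brighter probe replaced the dim one. The causes of the other changes were not tested, apart from the smaller number of arrays. Of the 37 named genes, 32 moved by more than the spread between arrays with all 4 arrays of each label, 27 under normexp and quantile normalization and 18 with slide as a fixed block. Genes near background, such as Kcnh1, Apod and Oxct2a, are limited by signal over background.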

Other observations

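Some further called genes were singled out after their values were seen, with no list or test behind the choice; the adrenergic and cyclic AMP list had 0 of 12 measured members called. The angiotensin II receptor gene Agtr1a was at -1.38, -1.59 and -1.40 on vehicle 1, 2 and 3, against -0.61, -0.51 and -0.77 on Dex+E2 1, 2 and 4, a difference of 0.83 ± 0.12. The endothelin receptor gene Ednrb was higher by 0.81 ± 0.11 and Ece1, the endothelin-converting enzyme gene, by 1.15 ± 0.18. Grk3, a kinase that desensitises beta-adrenergic receptors, was higher by 1.02 ± 0.11, and Cav1, which encodes the caveolar coat protein, by 1.15 ± 0.10. All 5 were also higher on Dex 1 and 2 than on E2 1 and 2, by 0.79, 0.67, 1.44, 1.17 and 0.95, and passed the limma test there.

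Other called genes were picked in the same way. Sphk1, which makes sphingosine-1-phosphate, was at -3.45, -3.50 and -3.58 under vehicle and -1.59, -1.40 and -1.74 on Dex+E2, a difference of 1.93 ± 0.15. Nt5e, the ectonucleotidase that makes adenosine, was at 0.46, 0.43 and 0.26 against 1.35, 1.52 and 1.71, a difference of 1.14 ± 0.12. Adarb1, an RNA-editing deaminase gene, was higher by 1.75 ± 0.14. The growth factor gene Pdgfa was lower by 0.74 ± 0.11 and the protease genes Adam19 and Mmp11 by 0.78 ± 0.10 and 0.72 ± 0.09. Of these 6, all but Mmp11 passed the limma test on Dex against E2, in the same direction.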
